A study of Arabidopsis thaliana with 11 samples.

Results

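Binding of the MADS-domain transcription factor (TF) APETALA1 (AP1) in organ differentiation (day 8) was compared with binding in organ specification (day 4) in synchronised Arabidopsis thaliana flowers. The members are the binding sites (BSs) in the 2 deposited AP1 ChIP-seq peak lists of these days, 1055 at day 8 and 956 at day 4, together 2011 of the 18963 peaks in the 6 AP1 and SEPALLATA3 (SEP3) lists of the study. Blank rows were dropped, 111 at day 8 and 230 at day 4, as were 20 day 8 peaks in the stretch of chromosome 2 that holds a copy of mitochondrial DNA. A day 4 peak was called kept if it shared at least 1 bp with a day 8 peak and lost otherwise, and a day 8 peak that shared no base with a day 4 peak was called newly called. These words describe 2 lists of calls: a peak absent from a list can still be bound below the calling threshold.

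Both samples came from inflorescences of the Landsberg ecotype, in the ap1-1 cal-1 background with the transgene pAP1::AP1-GR. The plants lack functional AP1 and CAULIFLOWER and carry AP1 fused to a glucocorticoid receptor domain under the AP1 promoter. Dexamethasone, given daily, moves the fusion into the nucleus, and tissue was taken 8 days and 4 days after the first treatment. The fusion was recovered through its receptor domain with an anti-GR antibody, the 2 biological replicates of each day were combined before peaks were called, and a precipitation with pre-immune serum of the same day served as mock control. SEP3 at day 8 and day 4, recovered with a SEP3 peptide antibody, and AP1 at day 2 came from the same line and treatment and serve as further readouts. The AP1 promoter drives the transgene, so the tissue that AP1 is read in can change between the days, and fewer AP1-containing cells and less AP1 per cell cannot be told apart. With 1 list per day, the replicate error is unknown. Intervals below are 95% intervals (Wilson for a share, Newcombe for a difference of shares), and they cover counting error over peaks, which are not replicates of a day.

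AP1 acts with SEP3 and other MADS-domain proteins in complexes that contact CArG boxes, the A/T-rich element of this family. It first gives the floral meristem its identity and then acts in sepals and petals, while AGAMOUS (AG) keeps AP1 expression out of the inner whorls. The peak lists describe which parts of this programme AP1 still occupied when the organs had begun to differentiate.

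The sites are shown by the CArG boxes (CC, then 6 bases of A or T, then GG) found within 50 bp of the summits of the strongest peaks of each class, with the box in capitals, read 5′ to 3′ on the plus strand of the TAIR10 reference of the Columbia ecotype. Of the 4 kept, 2 lost and 1 newly called boxes, the newly called one and those of AG and JAGGED (JAG) were added after their values had been seen.
BRANCHED1 (BRC1), kept, chr3:6380841-6380870: caatggatgaCCAAAATAGGagtttttatt
distal intergenic site between AP2 and SPATULA, kept, chr4:17409446-17409475: tgggaaccacCCAAATTAGGgtacaaatgg
AG intron, kept, chr4:10386521-10386550: taattatattCCAAATAAGGaaagtatgga
JAG downstream site, kept, chr1:25684069-25684098: cattgtgtatCCATAAATGGaaactttgtt
AT5G05820 downstream site, lost, chr5:1750974-1751003: cttaatcaagCCTTTTTTGGtttcttttca
SEP3 intron, lost, chr1:8595106-8595135: aattcaaaacCCAAAATTGGaaacccctaa
AT4G27450 and CBSX5, newly called, chr4:13730536-13730565: ttctttttcgCCTTTTTTGGgttaattatt
The box lay 37 bp from the day 8 summit at BRC1, 5 bp from it at the distal site and 5 bp from it in AG. It lay 7 bp from the day 4 summit in SEP3 and 23 bp from it at AT5G05820. None of the 10 newly called peaks of highest fold enrichment had such a box within 50 bp, and the newly called example is the strongest of the 7 that did.

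Of the 1055 day 8 peaks, 424 were newly called (40.2%, 95% interval 37.3 to 43.2%), and 632 of the 956 day 4 peaks were kept (66.1%, 63.0 to 69.0%), which left 324 lost. The 632 kept day 4 peaks met 631 day 8 peaks, because 11 day 8 peaks covered 2 or more day 4 peaks and 9 day 4 peaks were covered by 2 or more day 8 peaks. Few kept peaks lay near the 1 bp limit between the classes, but a reciprocal overlap of 50% lowered the kept share of day 4 peaks to 54.5%. Kept day 4 peaks shared a median of 246 bp with their day 8 peak and only 3 shared under 50 bp, the smallest overlap being 11 bp. The closest lost peak ended 11 bp from a day 8 peak, and the closest newly called peak began 19 bp from a day 4 peak. Within 2000 bp of a day 4 peak lay 85 of the 424 newly called peaks (20.0%), and within 2000 bp of a day 8 peak lay 73 of the 324 lost peaks (22.5%). Most of both classes thus stood apart from the AP1 peaks of the other day. Distances to peaks of the same day were not measured.

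Newly called and lost peaks were the weaker part of their own lists. Fold enrichment is the linear ratio of AP1 over mock signal at the summit, as the authors' peak caller gave it, and it is on its own scale in each list. At day 8 it had a median of 2.90 in newly called peaks (quartiles 2.66 and 3.20, highest 5.13) and of 3.50 in kept peaks (2.97 and 4.44, highest 11.8). At day 4 it had a median of 4.58 in kept peaks (3.88 and 5.63, highest 9.19) and of 3.72 in lost peaks (3.37 and 4.20, highest 7.25). Because significance decides whether a peak enters a list, these values describe the classes and were not tested. When only the stronger peaks of a list (−log10 q of 10 or more) were set against the whole other list, 20.3% of day 8 peaks were newly called and 81.4% of day 4 peaks were kept. This cut does not stand for the same fold enrichment in both lists. Kept peaks had a median −log10 q of 13.3 at day 8 and 13.7 at day 4, with the median fold enrichments of 3.50 and 4.58 given above.

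**Figure D1:**
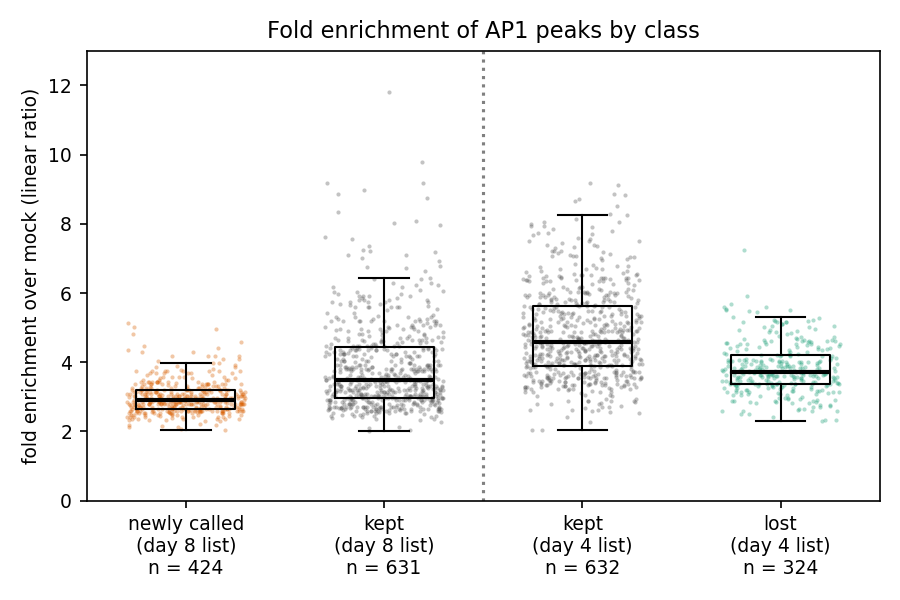
Fold enrichment over mock (linear ratio) of each AP1 peak, with newly called and kept peaks of the day 8 list left of the dotted line and kept and lost peaks of the day 4 list right of it. Boxes give the quartiles and the median and whiskers reach up to 1.5 box lengths. The medians are 2.90, 3.50, 4.58 and 3.72, and no newly called peak passes 5.13.

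The 10 strongest kept peaks included sites near AP2, SOC1, GRF2, GRF5, BRC1 and TEM1, a site at AT1G75580 (8.09 at day 8 and 7.49 at day 4) and one at chr5:18378618-18379312 with no listed gene (8.33 at day 8 and 7.79 at day 4). The peak of highest fold enrichment at day 8, chr4:17395429-17396156, had 11.8 at day 8 and 9.13 at day 4, lies 4771 bp upstream of the start of APETALA2 (AP2), a regulator of sepal and petal identity, and is listed for the neighbouring gene LEJ2. A second kept site of this region at chr4:17397085-17398214, 3212 bp upstream of AP2, had 8.87 at day 8 and 7.95 at day 4, and the distal site at chr4:17407739-17409855 on the other side of AP2 had 9.18 at day 8, where it covered 2 day 4 peaks of 7.70 and 7.35. AP2 gained a newly called peak close to its start as well (fold enrichment 4.83, −log10 q 25.4), with the summit 453 bp upstream, where SEP3 had a peak at day 8 (3.68) and none at day 4. The AP2 neighbourhood thus held its distal peaks at both days and added a promoter peak at day 8.

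SUPPRESSOR OF OVEREXPRESSION OF CO 1 (SOC1), a MADS-domain integrator of flowering signals, had 8.99 at day 8 and 8.84 at day 4 at the site 43 bp upstream of its start. Of the GROWTH-REGULATING FACTOR (GRF) genes, TFs that promote cell proliferation in organs, GRF2 had 8.75 at day 8 and 8.05 at day 4 and GRF5 had 8.03 at day 8 and 8.87 at day 4 at the site 1187 bp upstream of its start. BRC1, a TCP-domain repressor of branching, had 9.78 at day 8 and 7.09 at day 4. These sites ranked at or above the 95th percentile of their list at both days. TEMPRANILLO1 (TEM1), a repressor of flowering, differed from them: its site 538 bp upstream of the start had 9.18 at day 8 (rank percentile 99.8) and 4.87 at day 4 (69.0), and its site 2716 bp upstream had 4.83 (88.8) and 2.79 (3.61).

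Across the 632 pairs of a kept day 4 peak with its day 8 peak, the summits lay a median of 33 bp apart, and 415 pairs (65.7%) had them within 50 bp. Fold enrichment was lower at day 8 than at day 4 in 494 pairs (78.2%), with medians of 3.53 at day 8 and 4.58 at day 4, but the lists were called separately, and rank within a list was used to compare the days. The rank percentile differed by a median of 17.5 points in size between the days. It was over 25 points higher at day 8 in 136 pairs and over 25 points lower in 112. The lists hold different numbers of peaks, and without replicate lists the shift of rank to be met between repeats of 1 day is unknown, so these ranks are a description.

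The largest fall of rank was at a site downstream of AT5G05820, next to the strongest lost peak, with a fold enrichment of 2.49 at day 8 (rank percentile 5.40) and 6.40 at day 4 (91.6). A site listed for BIG BROTHER (BB), a ubiquitin ligase that limits organ size, and for AT3G63540 had 2.46 (4.22) at day 8 and 5.73 (84.7) at day 4. Its day 8 summit lies inside AT3G63540, 220 bp upstream of the BB start. The D-type cyclin CYCD3;2 had 2.60 (10.4) at day 8 and 6.04 (88.9) at day 4. PHAVOLUTA (PHV), a class III HD-ZIP gene of the adaxial organ side, had 2.71 (17.4) at day 8 and 6.94 (95) at day 4 at its site 1026 bp upstream of the start, while of its 2 downstream sites 1 ranked higher at day 8 (4.01, 77.5) than at day 4 (4.68, 64.7) and 1 ranked lower (2.80, 25.9, against 4.64, 64). UNUSUAL FLORAL ORGANS (UFO), the F-box partner of LEAFY, had 2.04 (0.237) at day 8 and 5.22 (76.7) at day 4 at its site 2140 bp upstream of the start. SEP3 had peaks at the UFO site at both days (4.81 at day 8 and 9.59 at day 4 on the scales of the SEP3 lists).

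The largest rises lay over transcribed regions in 4 of 5 pairs, which are 3 loci, the remaining pair being the upstream TEM1 site. At AT3G15450 a day 8 peak of 1599 bp (fold enrichment 7.10, rank percentile 98.3) with its summit in a coding exon covered 2 day 4 peaks of 272 bp (2.04) and 146 bp (2.43). At GLYCINE-RICH RNA-BINDING PROTEIN 7 (GRP7), a clock-controlled RNA-binding protein, the day 8 peak was 1398 bp wide with 6.40 (97.5), against 346 bp with 2.05 (0.209) at day 4. At AT4G32020 and its neighbour AT4G32030 the day 8 peak was 2103 bp wide with 4.35 (82.7), against 191 bp with 2.28 (0.314) at day 4.

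**Figure D2:**
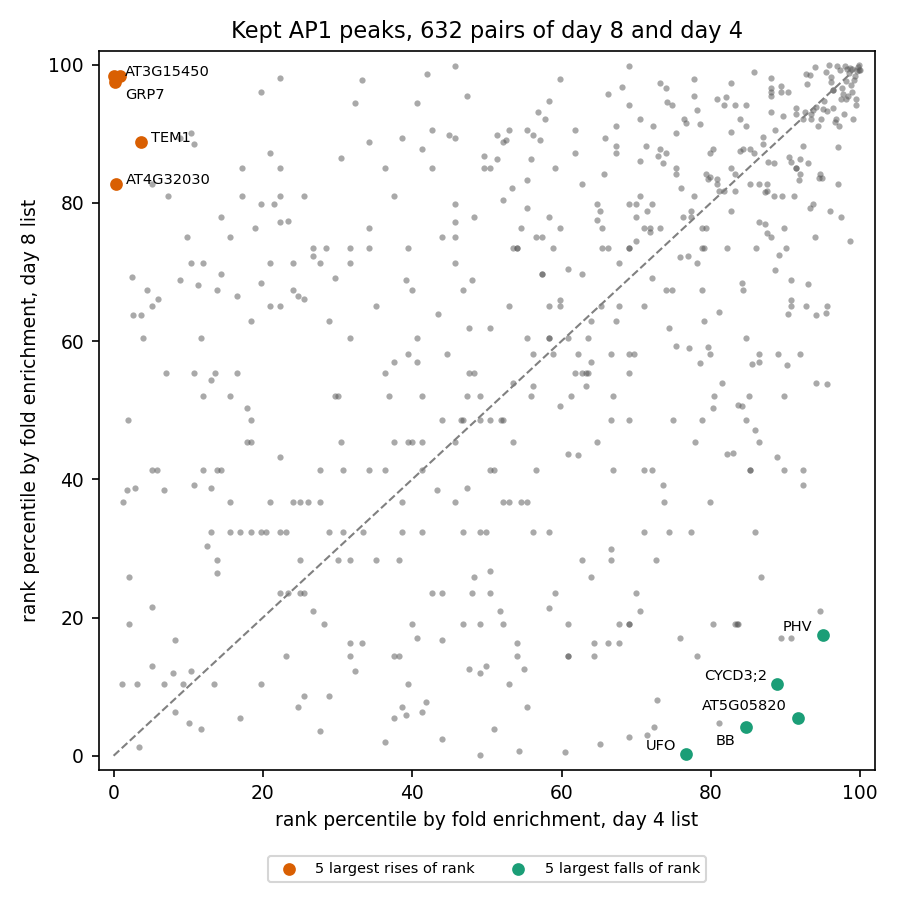
Rank percentile by fold enrichment of each of the 632 kept pairs, in the day 8 list (vertical) against the day 4 list (horizontal), where 100 is the strongest peak and the dashed line marks equal rank. The 5 largest rises (orange, AT3G15450 counted as 2 pairs) and the 5 largest falls (green) are marked, with UFO at 0.237 at day 8 and 76.7 at day 4.

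Among the 10 strongest lost peaks the fold enrichment at day 4 was 7.25 downstream of AT5G05820, 5.92 downstream of FLOWERING PROMOTING FACTOR 1 (FPF1), 5.69 in an intron of the class II KNOX gene KNAT4, 5.60 in the 5′ UTR of SPL8, 5.59 in the receptor-like protein gene RLP29 and 5.53 at the start of AT5G10310. The other 4 of the 10 strongest were an intergenic site at chr5:3514987-3515359 (5.52), the SEP3 intron (5.50), IQD18 (5.48) and the GRF7 promoter (5.46). The 10 ranked between the 80.5th and 96.5th percentile of the day 4 list. All 10 overlapped a SEP3 peak at both days, as did most lost peaks, and an AP1 peak at day 2, which 38.3% of all lost peaks did. The SEP3 peak that overlapped the lost SEP3 intron site had a fold enrichment of 2.34 at day 8 and 8.47 at day 4, each on the scale of its list. The day 4 value is shared with the kept AP1 sites in the intron and near the start, where SEP3 had 4.65 at day 8. It is therefore not a value of the box alone.

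The SEP3 locus held kept, lost and newly called sites side by side. SEP3 is a partner of AP1 in the floral complexes. Its distal site 2748 bp upstream of the start had 7.36 at day 8 and 7.92 at day 4. Kept sites in the intron had 2.96 at day 8 and 4.39 at day 4, and near the start 3.14 at day 8 and 2.61 at day 4. Newly called peaks lay 783 bp (3.20) and 1509 bp (2.90) upstream of the start, between the distal site and the gene, and the lost intron site lay 1010 bp inside it.

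The 10 strongest newly called peaks were mixed in position and width. The highest, chr2:16700335-16701973, was 1639 bp wide with a fold enrichment of 5.13 and its summit in the coding exon of HSPRO2, a gene named for similarity to a nematode resistance gene. The next, chr4:17048908-17050145, was 1238 bp wide with 5.01 and its summit in the 3′ UTR of J11, a chloroplast DnaJ-type chaperone. ABCG9, a transporter gene, followed with 4.95, the AP2 promoter with 4.83, and a peak of 1479 bp over TOUCH 4 (TCH4), a touch-inducible cell wall enzyme, with 4.59. The other 5 of the first 10 lay at AT1G52565 (4.47), in an intergenic stretch of chromosome 1 (4.41), between AT2G44120 and AT2G44130 (4.35), at the glucosyltransferase genes UGT73B3 and UGT73B2 (4.31) and between AT4G15610 and AT4G15620 (4.30). All 10 overlapped a SEP3 peak at day 8 and 8 did so at day 4, the exceptions being the AP2 promoter and AT1G52565.

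Newly called peaks lay in coding exons and 3′ UTRs more often than the other classes. Their summits fell in a coding exon in 53 of 424 peaks (12.5%, 9.68 to 16.0%), against 4 of 324 lost peaks (1.23%, 0.481 to 3.13%), a difference of 11.3 points (7.87 to 14.8), and 4 of 631 kept day 8 peaks (0.634%), a difference of 11.9 points (8.88 to 15.4). For the 3′ UTR the shares were 11.3% of newly called and 4.01% of lost peaks, a difference of 7.31 points (3.49 to 11.1). The 5′ UTR went the other way, with 4.25% of newly called and 10.5% of lost peaks, a difference of −6.25 points (−10.4 to −2.52). Promoters, here the 1000 bp upstream of a start, held 24.1% of newly called and 33.0% of kept day 8 peaks, a difference of −8.91 points (−14.3 to −3.34). Kept and lost peaks of day 4 were alike in their coding exon share to within the interval (0.791% and 1.23%, difference −0.443 points, −2.39 to 0.847). The share of the genome in each position was not measured. The values therefore compare peak classes and do not show a preference for coding sequence over the genome.

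The share in coding exons was also set against newly called peaks of the earlier AP1 step and of SEP3 at the same step. Of the AP1 peaks newly called at day 4 against day 2, 0.709% had the summit in a coding exon, 11.8 points less than the AP1 peaks newly called at day 8 (8.77 to 15.3). Of the SEP3 peaks newly called at day 8 against day 4, the share was 4.31%, 8.19 points less (5.20 to 11.8). With peaks over 1000 bp wide left out, an alternative added after the data had been seen, the difference between newly called and lost AP1 peaks was 9.25 points (6.03 to 12.7). The 101 newly called peaks in a coding exon or 3′ UTR had the same median fold enrichment as the other 323 (2.90 and 2.90) but a median G and C content of 40.6% within 50 bp of the summit, against 33.7% in the others. RNA levels of these genes were not analysed here, and the part of transcription in this result was not tested.

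**Figure D3:**
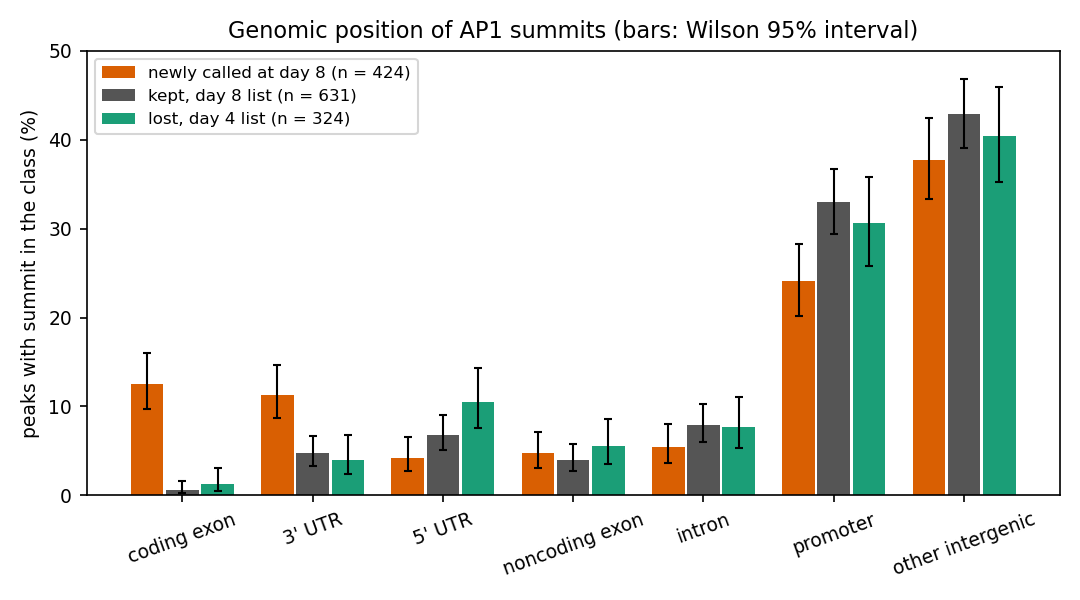
Share of AP1 summits (%) in each genomic class for newly called peaks (orange, n = 424), kept peaks of the day 8 list (grey, n = 631) and lost peaks (green, n = 324), with Wilson 95% intervals. Coding exons hold 12.5%, 0.634% and 1.23% and the 3′ UTR 11.3%, 4.75% and 4.01%.

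Peaks over 1000 bp wide numbered 14 among the 424 newly called peaks (3.30%, 1.98 to 5.47%) and 0 among the 324 lost ones (upper bound 1.17%). Among kept peaks there were 13 in the day 8 list and 4 in the day 4 list. In 12 of the 14 newly called ones the summit lay in a coding exon or 3′ UTR, and in none in a promoter or intergenic sequence, whereas 7 of the 13 kept day 8 ones lay in a promoter or intergenic sequence. Besides HSPRO2, J11 and TCH4 they covered ERD15 (4.17), a dehydration-responsive gene, EXORDIUM (EXO, 3.74), a brassinosteroid-responsive growth gene, EXL2 (3.98), SRC2 (3.90) and ETHYLENE RESPONSE FACTOR 4 (ERF4, 3.74), a repressor in ethylene signalling. All 14 overlapped a SEP3 peak at day 8 and 13 did so at day 4.

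The wide peaks included 3 of the 4 KISS ME DEADLY (KMD) genes, whose F-box proteins target type-B response regulators of cytokinin for degradation. The family was noticed after the values had been seen. The share of all loci under newly called wide peaks was not counted, so the 3 of 4 is a description. An AP1 peak of any width, kept or newly called, was listed at day 8 for 3.84% of protein-coding loci. KMD1 (AT1G80440) had 3 newly called peaks, the strongest of 1441 bp with a fold enrichment of 3.80. KMD3 (AT2G44130) also had 3, one of 1207 bp over the gene with 3.38 and one of 494 bp, 1726 bp upstream of its start, with 4.35. KMD4 (AT3G59940) had 1 peak of 1806 bp with 3.44, the widest of the newly called peaks. None of the 4 genes had an AP1 peak at day 4, and KMD2 (AT1G15670) had none at day 8 either.

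Motifs within 50 bp of the summit differed between the classes. An exact CArG box was found in 7 of 424 newly called peaks (1.65%, 0.802 to 3.37%), 53 of 631 kept day 8 peaks (8.40%, 6.48 to 10.8%), 47 of 632 kept day 4 peaks (7.44%) and 12 of 324 lost peaks (3.70%, 2.13 to 6.36%), against 0.594% of all 1177695 windows of 101 bp on the 5 chromosomes. Newly called peaks had it less often than kept day 8 peaks (difference −6.75 points, −9.32 to −4.17), and kept day 4 peaks more often than lost ones (3.73 points, 0.524 to 6.53). Between newly called and lost peaks the interval included 0 (−2.05 points, −4.84 to 0.276). With 1 mismatch allowed the shares were 24.1% in newly called, 37.9% in kept day 8, 38.0% in kept day 4 and 24.4% in lost peaks, so kept sites stood out from both other classes on this looser measure too (difference from newly called −13.8 points, −19.2 to −8.15, and from lost 13.6 points, 7.41 to 19.4). In newly called peaks of coding exons and 3′ UTRs this looser box was found in 8 of 101 (7.92%), against 29.1% of the other newly called peaks. The share of all windows with the looser box was not counted, so these values compare classes only. The part of G and C content in them was not tested. Within 300 bp, the nearest exact box lay a median of 60 bp from the summit in the 27 newly called peaks that had one, 37 bp in 88 kept day 8 peaks, 43 bp in 89 kept day 4 peaks and 47 bp in 26 lost peaks.

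The GA-rich motif followed another order. It was called where G and A alternate over 8 bases on either strand. It was found in 9 of 424 newly called peaks (2.12%, 1.12 to 3.98%), 20 of 631 kept day 8 peaks (3.17%), 29 of 632 kept day 4 peaks (4.59%) and 27 of 324 lost peaks (8.33%, 5.79 to 11.9%), against 2.08% of all windows. The difference between newly called and lost peaks was −6.21 points (−9.87 to −3.06), and between kept day 4 and lost peaks −3.74 points (−7.52 to −0.556). The strongest lost peak with the motif outside a UTR (fold enrichment 5.27) has no listed gene and lies nearest to AT1G68140, and its repeat is shown in capitals.
AT1G68140 region, lost, chr1:25537244-25537271: caggcatcagTCTCTCTCaccttcactc
When both lists were cut at a −log10 q of 10 the difference between newly called and lost peaks was −4.39 points and its interval included 0 (−8.95 to 0.0502). The G-box (CACGTG) was found in 4.25% of newly called and 2.78% of lost peaks (1.47 points, −1.40 to 4.17), against 1.11% of all windows. A match says that the letters are there, not that the site is used.

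SEP3, read in separate precipitations, was used as a measure that did not enter the classes, although AP1 and SEP3 of 1 day were called against the mock control of that day. A SEP3 peak of day 8 overlapped 95.5% of newly called and 98.1% of lost AP1 peaks (difference −2.63 points, −5.24 to 0.0301), so nearly all sites that left the AP1 list were still in the SEP3 list. A SEP3 peak of day 4 overlapped 82.8% of newly called and 99.7% of lost peaks (−16.9 points, −20.8 to −13.3). This difference was −9.24 points when both lists were cut at a −log10 q of 10 and −30.1 points by summits within 150 bp. Most newly called AP1 sites thus had a SEP3 call but no AP1 call at day 4. The SEP3 list of that day is longer (6843 peaks against 956 of AP1), so the calls give no order of binding. Summits were less closely aligned in newly called peaks, where a SEP3 summit of day 8 lay within 150 bp in 69.1%, against 89.5% of lost peaks (−20.4 points, −25.8 to −14.7) and 86.4% of kept day 8 peaks.

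The rank of SEP3 between the days differed between the AP1 classes. Where SEP3 had a peak at both days, its rank percentile by fold enrichment was higher at day 8 than at day 4 at 289 of 348 newly called AP1 sites (83.0%) and at 103 of 318 lost sites (32.4%), a difference of 50.7 points (43.8 to 56.7), with 385 of 630 kept sites (61.1%) between them. At SEP3 sites of both days without an AP1 peak at either day, a comparison added after the data had been seen, it was higher at day 8 at 2587 of 4648 (55.7%), with a median change of 2.05 points. The median change, day 8 minus day 4, was 14.68 points at newly called sites (quartiles 3.08 and 34.78), 0.80 at kept sites (−1.79 and 6.77) and −4.13 at lost sites (−14.50 and 2.91). The median SEP3 rank was 81.3 at day 8 and 61.3 at day 4 at newly called sites, 93.9 and 92.1 at kept sites, and 80.1 and 84.6 at lost sites. Kept AP1 sites were thus strong SEP3 sites at both days. The SEP3 lists differ in length (7815 peaks at day 8 and 6843 at day 4), the mock control of a day enters both its AP1 calls and its SEP3 values, and the part of the mock in this result was not tested. With SEP3 summits within 150 bp in place of any overlap the shares were 86.1% of 237 newly called and 31.9% of 288 lost sites, a difference of 54.1 points (46.6 to 60.5).

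**Figure D4:**
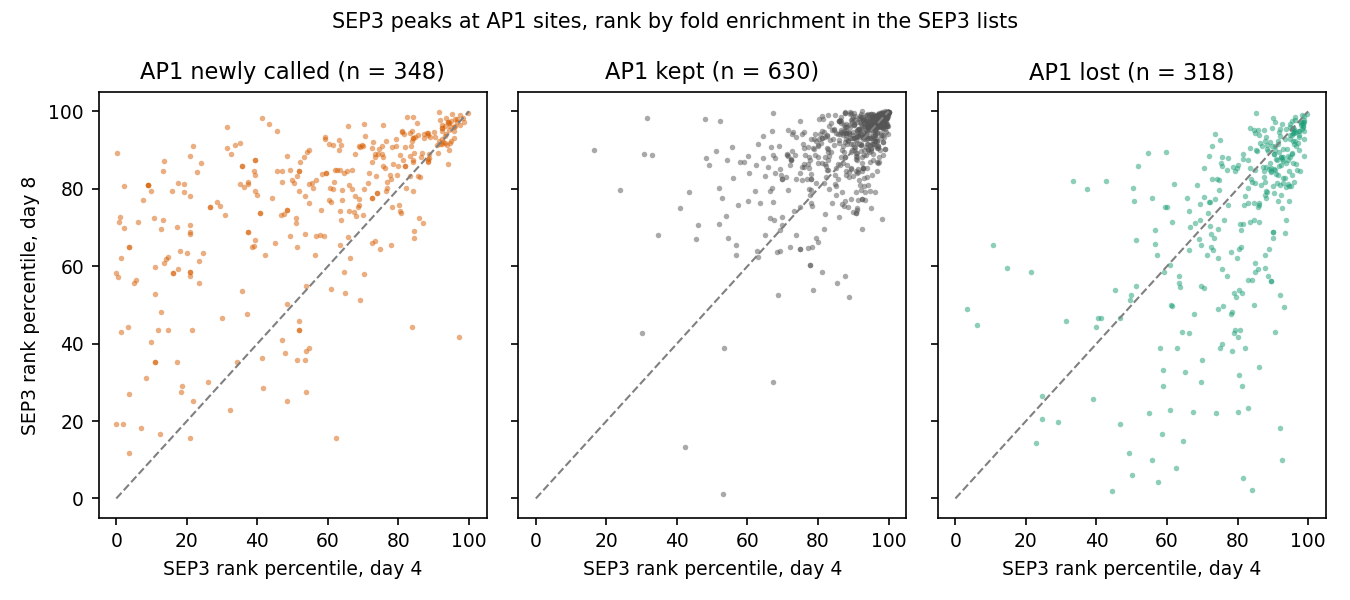
Rank percentile by fold enrichment of the SEP3 peak at day 8 (vertical) and day 4 (horizontal) at AP1 sites that were newly called (orange, n = 348), kept (grey, n = 630) or lost (green, n = 318), where SEP3 had a peak at both days. Points above the dashed line ranked higher at day 8, which holds for 83.0%, 61.1% and 32.4% of the sites.

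The AP1 list of day 2 had 498 peaks. It overlapped 18 of 424 newly called peaks (4.25%), 42.0% of kept day 8 peaks, 42.4% of kept day 4 peaks and 38.3% of lost peaks, and the difference between kept and lost day 4 peaks (4.13 points, −2.47 to 10.6) had an interval that included 0. When both lists were cut at a −log10 q of 10 this difference was −9.24 points (−17.4 to −0.722).

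The gene columns of the lists name 1125 loci at day 8 and 1045 at day 4, the potential direct target genes whose neighbourhood (3000 bp before the start and 1000 bp past the end) holds a summit. Of the day 8 loci 422 were newly listed (37.5%, 34.7 to 40.4%), and of the day 4 loci 703 were kept (67.3%, 64.4 to 70.0%) and 342 lost. Among the 27444 protein-coding loci of the reference annotation 3.84% were listed at day 8 and 3.55% at day 4. Of the kept loci 695 had a kept peak at both days and 8 were listed at both days through different peaks. A kept and a newly called peak stood at the same locus in 83 cases, and a kept and a lost peak in 62. Loci with 3 or more peaks numbered 48 at day 8 and 30 at day 4.

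The 8 loci that changed peaks were BELL1 (BEL1), GAE6, AGL31, EMF1, NGATHA1 (NGA1), HB40, AT2G47440 and AT3G51940, the last 3 being beyond the 5 of highest fold enrichment. BEL1, a homeodomain gene of the ovule integuments, had a newly called peak 2655 bp upstream of its start (fold enrichment 4.17, −log10 q 18.6) and a lost peak in an intron (3.37, 5.79), 5417 bp apart. GAE6, an enzyme gene of pectin sugar synthesis, had 3.08 at day 8 upstream and 3.88 at day 4 in its 5′ UTR, 1038 bp apart. AGL31, a MADS-domain repressor of flowering, had 2.96 at day 8 and 3.82 at day 4, 7317 bp apart, at opposite ends of the gene. EMF1, a repressor of the floral programme in vegetative tissue, had 2.90 and 4.42, and NGA1, a gene of style development, had 2.78 and 3.95. Apart from BEL1 the newly called peaks of the 8 loci had fold enrichments from 2.66 to 3.08, against a median of 2.90 in their class.

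Floral regulators were described with 12 lists of 241 loci in all, of which 67 were listed at day 8 (27.8%) and 69 at day 4 (28.6%). Of these, 11 were newly listed, 56 kept and 13 lost, so 81.2% of the day 4 loci were kept, beside 67.3% of all day 4 loci. Of all protein-coding loci 3.84% were listed at day 8 and 3.55% at day 4. The lists were chosen with earlier results known, and the list counts are a description.

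Of 13 floral meristem identity genes 9 were listed at day 8 and the same 9 at day 4. None was newly listed, beside 37.5% of all day 8 loci, and none lost, beside 32.7% of all day 4 loci. At the strongest day 8 site of each gene the fold enrichment was 8.99 at day 8 and 8.84 at day 4 in SOC1, 7.21 and 4.00 in AP1, 6.04 and 6.01 in FRUITFULL (FUL), 5.79 and 7.85 in FD, 5.19 and 6.55 in LATE MERISTEM IDENTITY1 (LMI1) and 4.92 and 5.93 in SVP, a repressor of the floral transition. AP1 ranked higher at day 8, with the peak 2560 bp upstream of its start at the 98.6th percentile at day 8 and the 42.0th at day 4, but the same promoter is in the transgene, and reads of the gene and of the transgene cannot be told apart. FUL, a MADS-domain relative of AP1, had 5 peaks at day 8, all of them kept, and 4 at day 4, where the intron peak met 2 day 8 peaks. LEAFY (LFY), the master regulator of floral fate, had 1 peak at day 8, in an intron (3.38), and 3 at day 4, the same intron site (4.48) and 2 lost promoter sites (3.78 and 3.50). SVP had likewise lost its second site (4.68 at day 4), so the genes were kept while some of their peaks were not.

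Of 15 floral organ identity genes 8 were listed at day 8 and 7 at day 4. Kept were AP2, APETALA3 (AP3), AG, SEP3, SEP4, SHATTERPROOF2 (SHP2) and BEL1, and PISTILLATA (PI) was newly listed. BEL1 was kept as a locus only, through different peaks at the 2 days, as given above. AP3 and PI encode the partner proteins of petal and stamen identity. AP3 had 3.25 at day 8 and 3.31 at day 4 in its 5′ UTR. PI had a peak of 3.27 at day 8 whose summit, 1790 bp upstream of the PI start, lies in a coding exon of the neighbouring gene BCB, and a narrow one 107 bp inside PI with 2.42 (−log10 q 4.31). No PI peak was in the day 4 list, whereas SEP3 had 8.85 at day 8 and 8.24 at day 4 at that second site. AG, the stamen and carpel identity gene, kept the intron site whose box is shown above (4.96 at day 8 and 5.15 at day 4) and lost a site 1128 bp upstream of its start (3.56 at day 4). SHP2 had 3.29 at day 8 and 5.33 at day 4.

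Of 8 meristem and boundary genes listed at day 4, 3 were lost, and of 9 polarity genes 4, beside 32.7% of all day 4 loci. Of 16 meristem and boundary genes 6 were listed at day 8 and 8 at day 4. The KNOX gene KNAT2 (4.12 at day 4), the homeodomain gene POUND-FOOLISH (PNF, 3.61) and LSH4 (4.05) were lost, and PENNYWISE (PNY, 3.56 at day 8), the paralogue of PNF, was newly listed. The kept genes BLADE-ON-PETIOLE1 (BOP1) had 4.35 at day 8 and 7.38 at day 4, CUC3 3.92 and 5.34, BOP2 3.20 and 4.40, LSH3 3.14 and 5.73, and KNAT6 2.90 and 5.11.

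Of 17 polarity genes 6 were listed at day 8 and 9 at day 4. REVOLUTA (REV, 2.97 at day 4), of the adaxial side, and KANADI1 (KAN1, 3.21), KAN3 (4.64) and FILAMENTOUS FLOWER (FIL, 2.81), of the abaxial side, were lost. YAB3 (2.77 at day 8), the closest relative of FIL, was newly listed. Kept were PHABULOSA (PHB) with 5.43 at day 8 and 6.39 at day 4, ETTIN (ETT) with 4.71 and 5.79, PHV at the sites given above, KAN2 with 3.56 and 5.12 and AS1, a MYB gene that keeps KNOX genes off in organs, with 3.02 and 6.43. ETT, AS1 and KAN2 each lost at least 1 further site, while KAN2 also had 2 newly called peaks and so 3 peaks at each day. The lost genes of both lists had fold enrichments from 2.81 to 4.64 at day 4, against a median of 3.72 in all lost peaks.

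Of 29 organ growth genes 9 were listed at each day. GRF2 and GRF5 stood first, as given above, and GRF3 had 4.47 at day 8 and 6.39 at day 4. JAG, which promotes growth of organ blades, had 3 peaks at day 8 and 4 at day 4, the strongest at day 8 with 4.89 at day 8 and 4.73 at day 4 at the same site. TCP5 had 4.60 at day 8 and 3.70 at day 4 and gained a second peak. STERILE APETALA (SAP) had 3.56 at day 8 and 5.92 at day 4. GRF7 was lost (5.46 at day 4), and NUBBIN (NUB), the paralogue of JAG, was newly listed (2.78 at day 8).

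Of 14 carpel and gynoecium genes 5 were listed at day 8 and 4 at day 4. All 4 were kept, NGA1 only through different peaks at each day, as given above. NGA3 had 3.71 at day 8 and 6.03 at day 4, NGA2 3.30 at a day 8 peak that covered day 4 peaks of 4.64 and 3.88, and HECATE1 (HEC1) 2.96 at day 8 and 4.07 at day 4, while ALCATRAZ (ALC), a gene of fruit opening, was newly listed (2.80 at day 8). Of 8 stamen and anther genes 1 was listed, TGA9 (2.66 at day 8 and 3.88 at day 4). Of 10 cuticle genes 1 was listed, SHINE1 (SHN1), with 4.23 at day 8 and 3.88 at day 4 in its promoter and 3.56 at day 8 and 5.72 at day 4 in its 5′ UTR.

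Of 61 auxin genes 12 were listed at day 8 and 8 at day 4, with 5 newly listed, 7 kept and 1 lost. The newly listed ones were the auxin efflux carriers PIN3 (3.32 at day 8, in an intron) and PIN4 (2.75), IAA18 (3.14), ARF5, also named MONOPTEROS (2.90, 71 bp upstream of its start), and ARF2 (2.60). Their peaks had −log10 q values from 5.20 to 10.77. Kept were the repressor genes IAA4 with 6.22 at day 8 and 7.98 at day 4 and IAA27 with 4.59 and 4.40, and the kinase gene PINOID (PID), which directs PIN proteins, with 4.17 and 3.47, while ARF11 was lost (3.79 at day 4). Beside 37.5% newly listed among all day 8 loci, 5 of 12 is near the share of the whole list. Of 25 gibberellin genes 4 were listed at day 8 and 5 at day 4, with the oxidase gene GA2OX1 at 5.79 at day 8 and 6.01 at day 4, RGL2 at 3.80 and 4.33, the receptor gene GID1B at 3.38 and 5.73, GA2OX8 at 3.36 and 5.15, and GA3OX3 lost (2.72 at day 4). Of 20 cytokinin genes none was listed at day 8 and 2 at day 4, the response regulator gene ARR7 (3.15) and the oxidase gene CKX6 (5.19). Beside 3.84% of all protein-coding loci listed at day 8 and 3.55% at day 4, counts from so short a list are a description.

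Of 15 flowering time genes 7 were listed at each day. The repressor genes TEM1 (9.18 at day 8 and 4.87 at day 4), TARGET OF EAT3 (TOE3, 5.07 and 5.73) and SCHLAFMUETZE (SMZ, 4.35 and 5.79) were kept, as were SPL5 (4.04 and 4.15), SPL9 (3.60 and 6.52) and SPL4 (2.72 and 4.87). SPL15 was lost (3.30 at day 4). TEM2, the paralogue of TEM1, was newly listed with 3 newly called peaks of 3.44, 3.23 and 2.97 upstream of its start, so TEM1 stood higher at day 8 by rank and TEM2 by call.

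**Figure D5:**
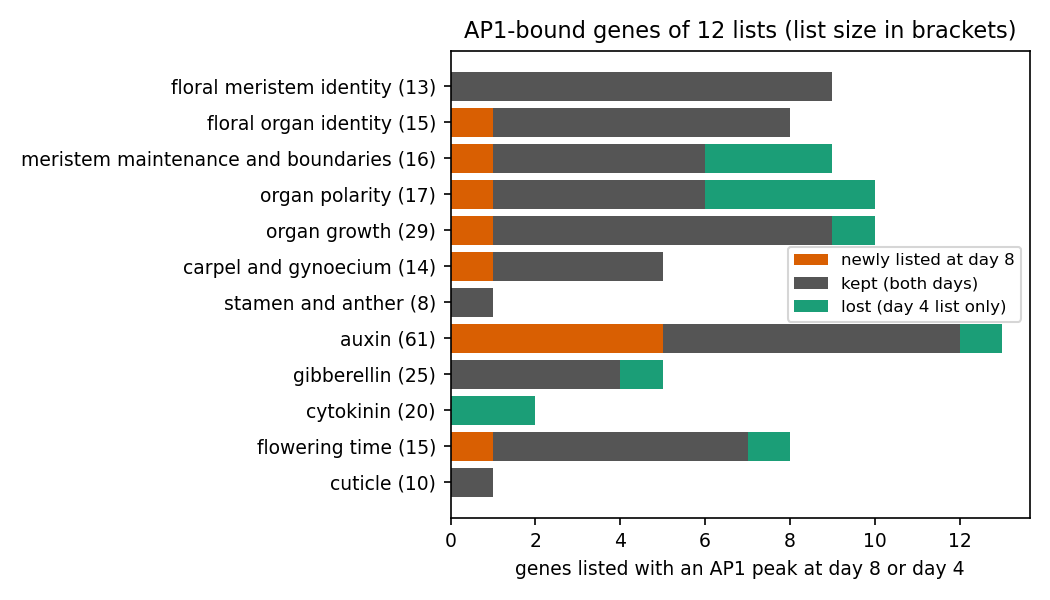
Number of genes of each list with an AP1 peak, split into newly listed at day 8 (orange), kept (grey) and lost (green), with the list size in brackets. The meristem identity genes are 9 kept of 9, polarity has 4 lost, auxin has 5 newly listed and cytokinin has 2 lost. Of all day 8 loci 37.5% were newly listed, and of all day 4 loci 32.7% were lost.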

How the data were processed

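AP1 ChIP-seq peak lists of day 8 and day 4 were compared, with the SEP3 lists and the AP1 list of day 2 as further readouts. The authors base-called reads with CASAVA 1.7 for AP1 at days 8 and 4 and CASAVA 1.8 for the other lists, mapped them with Bowtie 0.12.7 to TAIR10, combined replicates and called peaks with MACS against mock precipitations. The deposited fold enrichment is a linear ratio over the mock background, and the deposited significance is −log10 of the p-value and of the q-value. A longer list can follow from deeper sequencing, and read numbers were not used here. Loci are those of the authors' gene columns, and 29 of 1467 are absent from the annotation. A summit in several classes was counted in the first that applied, from coding exon over UTRs and other transcribed sequence to promoter. Of 2617 pairs of a peak and a locus, 99.7% met the gene window when checked. Sequences and annotation are from RefSeq, of the TAIR10.1 release, whose nuclear chromosome lengths are those of TAIR10.

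Peaks were intersected in Python 3.11.15 with pandas 2.3.3 and numpy 2.4.6, and the procedure was tested on simulated data. Named were the 10 peaks of highest fold enrichment per class, the 5 largest rises and falls of rank, the 5 strongest loci that changed peaks and, per list, up to 6 genes by fold enrichment plus newly listed and lost members. Other loci were named after their values had been seen. Members and lists were chosen with earlier results of these data known.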

Additional observations from a re-analysis of the deposited data

Results flagged for a closer look

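The mitochondrial insertion of chromosome 2, left out of the comparison, held 20 AP1 peaks at day 8 with fold enrichments from 1.80 to 4.62, while the AP1 list of day 4 and the SEP3 list of day 8 held 0 peaks there, and it is given here because it is signal in sequence that the comparison does not use.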

How the results depend on the processing

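Of 45 alternatives for 10 results, 27 stayed within the interval of the value reported and 18 moved outside it, and 0 turned the sign of a value whose interval excluded 0. Kept day 4 peaks came to 62.2% with summits within 150 bp, 54.5% with a reciprocal overlap of 50%, 60.7% with both lists cut at a −log10 q of 10, 81.4% with that minimum in the day 4 list alone and 62.9% with lists of equal length. Newly called peaks came to 43.6% by summits, 50.6% by reciprocal overlap, 36.2% at the minimum in both lists and 20.3% at the minimum in the day 8 list alone. Kept loci came to 63.0% with genes from 1000 bp upstream to the gene end and 63.4% at the minimum in both lists, and newly listed loci to 41.2% with the narrower window. The GA-rich difference was −12.7 points within 100 bp of the summit. The SEP3 difference at day 8 was −6.93 points with the insertion peaks kept and −20.4 points by summits, and at day 4 it was −9.24 points at the minimum in both lists and −30.1 points by summits. The day 2 difference, 4.13 points as reported, was −9.24 points at the minimum in both lists, of opposite sign. The causes were not tested. No paired analysis was possible because each list pools the replicates of its day, and for the same reason no replicate could be left out.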

Other observations

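A set of 18 AP1 sites was in the lists of day 2 and day 8 but not in that of day 4. In 11 of them the summit lay in a coding exon (61.1%, Wilson 95% interval 38.6 to 79.7%), against 42 of the 406 other newly called peaks (10.3%, 7.74 to 13.7%). They included HSPRO2 (fold enrichment 5.13 at day 8), EXL2 (3.98), SRC2 (3.90), ERF4 (3.74), EXO (3.74), the zinc finger genes RHL41 (3.42) and SZF1 (2.57) and MYB73 (2.96), and 6 of the 14 newly called peaks over 1000 bp wide were among them. The narrow site in PI was in both lists as well (2.42 at day 8 and 3.72 at day 2). Of the 410 newly called peaks that were not over 1000 bp wide, 12 overlapped an AP1 peak of day 2. The part of peak width in the coding exon share of the 18 sites was not tested.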
